A study of Mus musculus and Homo sapiens with 22 samples.

Results

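Mettl3, the catalytic subunit of the complex that writes N6-methyladenosine (m6A) on mRNA, lies on mouse chromosome 14 (GRCm38, 52294841 to 52305128, minus strand). The genes described here flank that locus. They start between 47 and 57 Mb of chromosome 14 and were selected on their mean count, which had to reach 50 over 6 RNA-seq libraries. Of 616 annotated genes in the window, 97 reached this count, and 94 remained as members after Mettl3, Zfp219 and Hnrnpc were left out by name. The count files list 56196 genes, of which 15731 were expressed highly enough to be tested, and all 94 members were among them. 91 members are protein coding, and the 3 others are the antisense gene Gm26782, the long non-coding RNA Gm16973 and Gm49204, a gene model inside Exoc5 on the same strand, where reads cannot be given to either with certainty. The question was whether genes near the targeted locus differ between knockout and wild-type cells, and whether the difference changes with the distance to Mettl3.

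RNA-seq of poly(A)+ RNA was analysed from mouse embryonic stem cells (mESCs), 3 libraries of wild-type (WT) and 3 of Mettl3 knockout (KO) cells. Both lines came from an earlier publication and were grown in serum with the cytokine LIF. The allele and the number of clones are not given in the sources used here. The miCLIP2 libraries of these lines are described as biological replicates, and the supplement calls the RNA-seq data matching and from the same samples. Whether the RNA-seq libraries came from separate cultures is not said in the sources used here. The p-values therefore measure the spread between these libraries, which may be technical. A list of m6A sites was analysed as well, which was predicted from miCLIP2 of WT mESCs, a method that crosslinks an m6A antibody to RNA and reads the site from reverse transcription stops.

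Gene counts per library lay between 22746733 and 27254245. Mettl3 itself was counted 560, 698 and 612 times in the WT libraries, given in the order of replicates 1 to 3 as everywhere below, and 462, 669 and 457 times in KO, so reads of the locus remained in all KO libraries. Its log2 fold change was −0.50 (SE 0.14). The adjusted p from edgeR, by its quasi-likelihood test and the Benjamini-Hochberg method, was 0.0134 and thus above the threshold of 0.01 used throughout. With a block for the replicate number it was 0.00281, and without KO replicate 2 it was 0.00685. All 8 mESC markers lay above 1 CPM (counts scaled to a common library size adjusted by TMM factors), with a summed level of 4220 to 4500 CPM in WT and 2970 to 3030 CPM in KO. Of 8 feeder fibroblast markers, 2 lay above 1 CPM, and the sum was 9.45 to 13.2 CPM in WT and 10.6 to 11.8 CPM in KO. No marker of either list was at 0 in all libraries. The WT and KO lines differ in more than Mettl3. The Y-linked genes Eif2s3y, Ddx3y, Kdm5d and Uty together were counted 0, 3 and 0 times in WT and 4721, 5432 and 5292 times in KO. For every member described below, the knockout and other differences between the lines therefore cannot be told apart. The libraries numbered 2 stood farthest from the others of their group, and 31 members passed the test without this pair, against 38 with all libraries. What these values contribute to the member results was not tested.

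A knockout line carries the edited chromosome together with all genes linked to the edit, so the neighbours of a targeted gene are a common control of such lines. Mettl3 acts in the nucleus with Mettl14 and Wtap. The mark they write sits mostly in long exons and near the stop codon, in the motif DRACH (D stands for A, G or T, R for A or G, and H for A, C or T), and is known to shorten the life of many mRNAs in stem cells.

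The following sequences show where m6A was predicted in WT cells in the members nearest to Mettl3, in those with the most sites, and in the members with the strongest fall and rise that hold a site. Each line gives the highest-scoring site of the gene as 21 nt from 5′ to 3′ on the transcribed strand in DNA letters (GRCm38.p6), with the pentamer around the modified A, the 11th base, in capitals.
Supt16 (chr14:52161350-52161370, minus, 3′ UTR in exon 26 of 26): acagtgagAGACTctgaccac
Chd8 (chr14:52198424-52198444, minus, 3′ UTR in exon 38 of 38): aaaacaaaAAACTtgtaccca
Tox4 (chr14:52292080-52292100, plus, coding sequence in exon 8 of 10): gaaaatacAGACTactgtggt
Ndrg2 (chr14:51911522-51911542, minus, coding sequence in exon 2 of 16): ccatggcaGAACTtcaggagg
Mmp14 (chr14:54440698-54440718, plus, 3′ UTR in exon 10 of 10): taccacaaGGACTttgcctct
Ajuba (chr14:54568885-54568905, minus, 3′ UTR in exon 8 of 8): ctgtggagAAACTctctggcc
Nynrin (chr14:55872616-55872636, plus, coding sequence in exon 8 of 8): ctcaagatGGACGctttcttg
The m6Aboost scores of these sites were 0.926 for Supt16, 0.952 for Chd8, 0.56 for Tox4, 0.719 for Ndrg2, 0.765 for Mmp14, 0.89 for Ajuba and 0.93 for Nynrin. The score is the classifier's own and lies between 0.5 and 1. The site of Nynrin has a G after the AC and does not hold the DRACH motif, unlike the other 6.

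Members changed in both directions and over a wide range of sizes. With calls set at an adjusted p up to 0.01 in edgeR, adjusted over all genes tested, 38 of the 94 members (40.4%) were called, against 29.7% of all genes tested and 32.3% of the 12079 tested genes whose mean reached 50 counts. 21 members (22.3%) were higher in the KO, where the background was 17.1%, and 17 (18.1%) were lower, where it was 12.6%. Among the genes whose mean reached 50 counts, 17.7% were higher and 14.5% lower. Scaled by library size alone, the members split into 23 higher and 12 lower. A change of at least 2-fold was found for 22 members (23.4%), 14 higher and 8 lower. This share was 15.5% of all genes tested and 13.8% of those whose mean reached 50 counts. The ranges of the WT and KO libraries did not overlap for 56 members (59.6%). This is close to the 56.1% of all genes tested and the 58.7% of those whose mean reached 50 counts. The median log2 fold change was 0.00 (quartiles −0.40 and 0.49, range −3.03 to 2.77), compared with −0.02 for all genes tested, and 47 members lay on either side of 0. The window as a whole had no common direction. Whether these shares differ from those of other genes was not tested.

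The minimum on the mean count can itself favour genes that differ, since 3 called members, Slc7a8, Lgals3 and Gm26782, had a mean under 50 counts in 1 of the groups. Among the 91 members at or above 50 counts in both groups, 35 (38.5%) were called. Just inside the minimum lay Slc7a8, with a mean of 51.8 counts, and just outside it Rnase4, a secreted ribonuclease, with 41.2 counts. Rnase4 had 45, 41 and 55 counts in the WT libraries and 31, 38 and 37 in the KO libraries. No member had a group at or under 3 counts in every library, and the smallest count of a member in any library was 6. Of the 519 genes of the window below the minimum, 359 had no count at all. They include 202 T-cell receptor segments and 38 olfactory receptor genes. The T-cell receptor alpha locus lies in a gap without members from 52.33 to 54.24 Mb, which begins behind Sall2 on the side of higher coordinates.

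**Figure D1:**
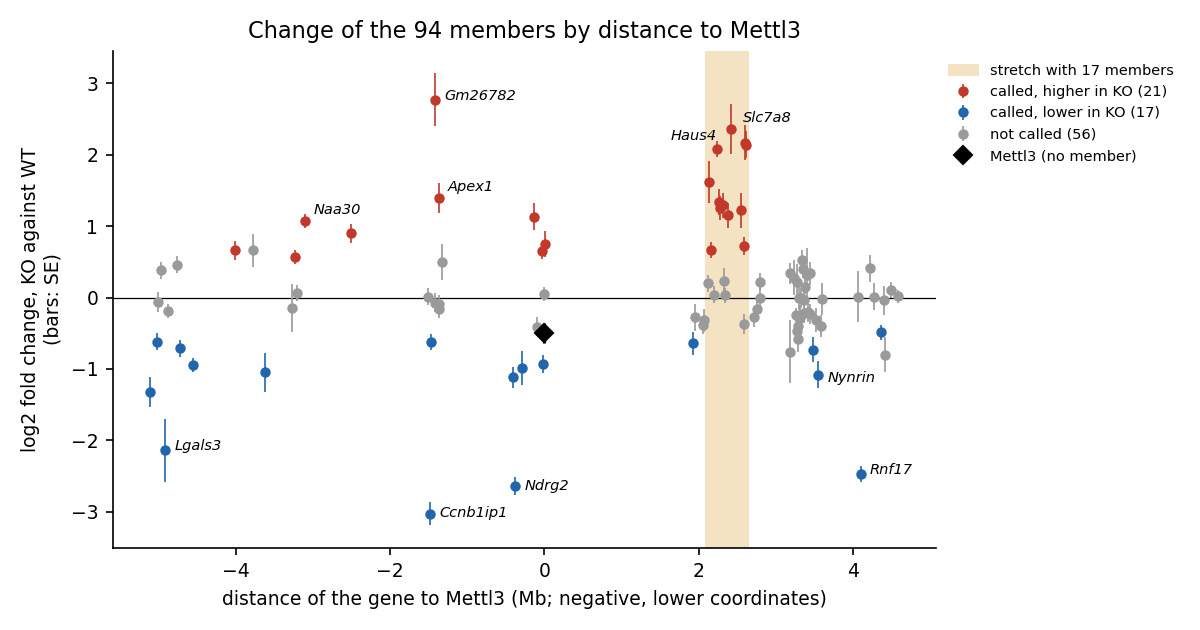
Log2 fold change (KO against WT, bars SE) of each of the 94 members against the distance of the gene to Mettl3 in Mb, negative towards lower coordinates, with 21 members called higher in red, 17 called lower in blue and 56 not called in grey. The black diamond is Mettl3 at −0.50, and the shaded stretch holds 17 members, of which 12 were called, all higher.

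Within 0.5 Mb of Mettl3, 7 of 9 members were called, a share of 77.8% beside 29.7% of all genes tested. 3 were higher and 4 lower, with a median log2 fold change of −0.41. They are described from the nearest outward, with Arhgef40 last.

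Tox4, an HMG-box protein of a nuclear phosphatase complex, overlaps Mettl3 on the opposite strand. It had 116, 99.2 and 104 CPM in WT and 115, 108 and 107 CPM in KO. The groups overlapped, and the log2 fold change was 0.05 (SE 0.10, edgeR adjusted p 0.737). The counts were made for 1 strand, so reads of both genes are kept apart where they overlap. Sall2, a zinc finger transcription factor 6.04 kb from Mettl3 on the other side, had 6.37, 5.18 and 6.90 CPM in WT and 11.0, 9.32 and 10.8 CPM in KO. Every KO library lay above every WT library, and Sall2 rose by 0.75 (SE 0.18, edgeR adjusted p 0.00720). This call was lost without WT replicate 1 (adjusted p 0.0218), WT replicate 2 (0.0232), KO replicate 1 (0.0372), KO replicate 2 (0.0122), KO replicate 3 (0.0314) or both libraries numbered 2 (0.0247).

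Rab2b, a small GTPase of the Golgi, lies 15.3 kb from Mettl3. Its level was 26.6, 29.5 and 24.2 CPM in WT and 13.7, 13.7 and 14.8 CPM in KO. The KO libraries were all lower and close to each other, and the log2 fold change was −0.93 (SE 0.13, edgeR adjusted p 0.000314). Chd8, a chromatin remodeller with a chromodomain, follows at 37.1 kb and moved the other way. It had 145, 133 and 136 CPM in WT and 207, 244 and 199 CPM in KO. The ranges were apart, and Chd8 rose by 0.65 (SE 0.11, edgeR adjusted p 0.00112). Its transcript carries 15 predicted m6A sites in WT cells, 10 of them in the coding sequence and 5 in the 3′ UTR.

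Supt16, the large subunit of the histone chaperone FACT, had the highest mean CPM of all members. It lies 97.4 kb from Mettl3 and was measured at 547, 494 and 669 CPM in WT and 434, 420 and 433 CPM in KO. The KO libraries were below all WT libraries, yet the change of −0.41 (SE 0.13) missed the threshold with an adjusted p of 0.0249 in edgeR, and it passed with a block for the replicate number (adjusted p 0.00412) or without WT replicate 2 (0.00879). Supt16 has 6 sites, all in its 3′ UTR. Rpgrip1, a scaffold protein of photoreceptor cilia, shares its end with Supt16 on the opposite strand. It had 4.86, 6.13 and 4.58 CPM in WT and 10.4, 12.7 and 11.1 CPM in KO. The groups were separate at low levels, and Rpgrip1 rose by 1.13 (SE 0.19, edgeR adjusted p 0.000884).

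The largest change within 0.5 Mb belonged to Ndrg2, a member of the NDRG family of differentiation-associated genes, at 381 kb. Its level fell from 65.2, 61.9 and 64.1 CPM in WT to 10.5, 9.32 and 10.9 CPM in KO, which is 6.22-fold lower at the group means. Replicates differed little within each group, and the log2 fold change was −2.64 (SE 0.12, edgeR adjusted p 5.08e-07). Mettl17, an assembly factor of the mitochondrial ribosome at 402 kb, had 16.6, 16.1 and 14.1 CPM in WT and 6.61, 7.324 and 7.499 CPM in KO. It was lower in every KO library, by a log2 fold change of −1.12 (SE 0.15, edgeR adjusted p 0.000287). Arhgef40, which encodes a guanine nucleotide exchange factor and was chosen after its values were seen, completed the list at 289 kb. It had 7.65, 8.84 and 5.81 CPM in WT and 3.42, 3.14 and 4.65 CPM in KO. The ranges were separate and the log2 fold change was −0.99 (SE 0.24, edgeR adjusted p 0.00719), but the call was lost without WT replicate 1 (adjusted p 0.0246), WT replicate 2 (0.0212), KO replicate 1 (0.034), KO replicate 2 (0.0297) or both libraries numbered 2 (0.0646), and with library sizes alone (0.0207).

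**Figure D2:**
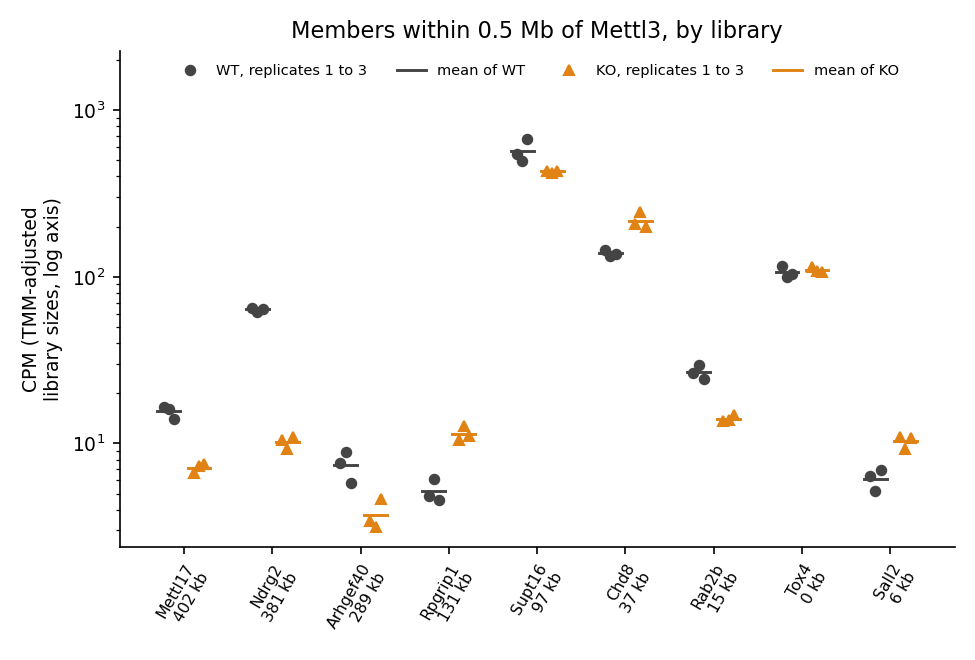
CPM (log axis) of the 9 members within 0.5 Mb of Mettl3 in each WT (circles) and KO (triangles) library, with the group means as lines, in the order of the chromosome and with the distance to Mettl3 under each name. Only Tox4, which overlaps Mettl3, has overlapping groups. The 3 members at the lower end are all lower in the KO, and members of both directions lie between them and Sall2.

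The remaining distance classes are read against the same 29.7% of all genes tested. Among the tested genes whose mean reached 50 counts, as it did for the members, the share was 32.3%. Between 0.5 and 2 Mb, 5 of 11 members (45.5%) were called, 2 higher and 3 lower, with a median of −0.09. Between 2 and 4 Mb, 18 of 55 (32.7%) were called, 15 higher and 3 lower, with a median of 0.06. Beyond 4 Mb, 8 of 19 (42.1%) were called, 1 higher and 7 lower, with a median of −0.06. The share called was thus highest next to Mettl3, where it rests on 9 genes. Spearman's rho with distance was −0.21 for the log2 fold change and −0.20 for its size (n = 94 members, which share the same 6 libraries), given as a description of a weak relation. For the log2 fold change it does not describe a steady rise towards Mettl3, since the median of the nearest class was −0.41. Calls were mostly higher between 2 and 4 Mb and mostly lower beyond 4 Mb. Set against the WT mean, the rho of the single KO libraries was −0.21, −0.20 and −0.22, and that of the WT libraries −0.13, −0.01 and 0.07. The median of the 9 nearest members was −0.38, −0.43 and −0.39 in the KO libraries and 0.06, −0.04 and −0.03 in the WT libraries. Whether the classes differ from each other was not tested.

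The calls were spread unevenly over the sides of Mettl3, a difference that was not tested. On the side of lower coordinates 20 of 33 members were called (60.6%), 8 higher and 12 lower. On the other side 18 of 61 were called (29.5%), 13 higher and 5 lower. Windows of the same width next to the one studied were read in the same way. From 37 to 47 Mb, 4 of 19 genes were called (21.1%), all lower, and from 57 to 67 Mb 17 of 58 (29.3%), 11 higher and 6 lower. All other genes of chromosome 14 whose mean reached 50 counts, these windows included, held 91 calls among 303 (30%). The share of all tested genes with that minimum was 32.3%. Neighbouring members had the same sign in 50 of 93 adjacent pairs (53.8%), as did 53.9% of 11633 adjacent pairs on the autosomes. Where both neighbours were called, they moved the same way in 14 of 19 pairs (73.7%) among members and in 66.8% of 1312 pairs on the autosomes.

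**Figure D3:**
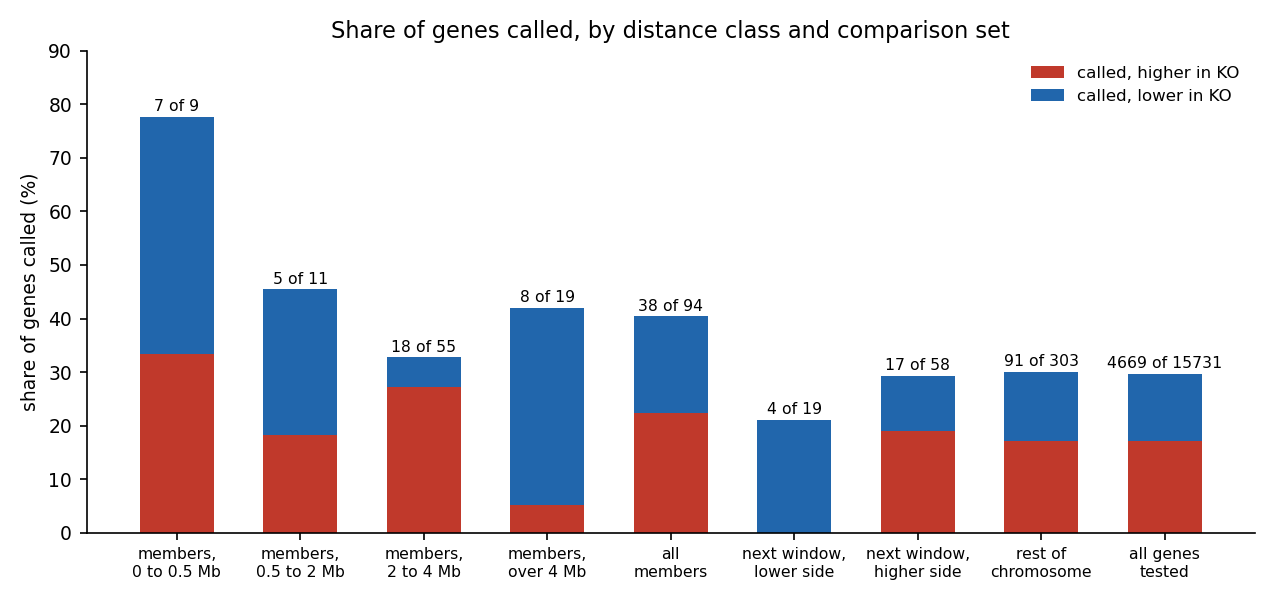
Share of genes called (%, adjusted p of at most 0.01), split into higher (red) and lower (blue) in KO, for the 4 distance classes of members, all members, the windows of equal width on either side, the other genes of chromosome 14 and all genes tested. The share is 77.8% for the 9 members within 0.5 Mb, 40.4% for all members and 29.7% for all genes tested.

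A run of calls in a single direction lay not at Mettl3 but in a stretch of 17 members between 2.12 and 2.61 Mb from it on the side of higher coordinates. The stretch runs from Mrpl52 to Efs. Its limits were drawn after the values were seen, so its counts are a description. 12 of the 17 were called (70.6%, beside 17.1% of all genes tested that were called higher), all of them higher in the KO, and 10 of these by at least 2-fold. The median log2 fold change was 1.22 (1.27, 1.08 and 1.19 in the single KO libraries against the WT mean), and 16 of the 17 values were positive. The calls lay on both strands, 4 of 6 on the plus and 8 of 11 on the minus strand, and the called members were 1.59-fold to 5.25-fold higher at the group means. The next 29 members, from 55 to 56 Mb, held 2 calls (6.9%), both lower, and a median of −0.16. Without the stretch, the remaining 77 members held 26 calls (33.8%), 9 higher (11.7%) and 17 lower (22.1%), with a median of −0.09. Of all genes tested 29.7% were called, 17.1% higher and 12.6% lower. Among those whose mean reached 50 counts 32.3% were called, 17.7% higher and 14.5% lower.

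Haus4, a subunit of the augmin complex that builds spindle microtubules, was the most uniform of these genes. It had 13.5, 13.1 and 13.1 CPM in WT and 57.03, 53.23 and 58.04 CPM in KO. The groups were far apart, and Haus4 rose by 2.08 (SE 0.11, edgeR adjusted p 1.48e-06). At the end of the stretch, Slc22a17, a receptor for lipocalin-2, was measured at 6.00, 9.60 and 4.06 CPM in WT and 28.7, 31.0 and 29.7 CPM in KO, a rise of 2.17 (SE 0.25, edgeR adjusted p 0.000116). Its neighbour Efs, an adaptor protein of the Cas family in adhesion signalling, had 8.54, 9.98 and 5.81 CPM in WT and 36.5, 39.6 and 31.3 CPM in KO, with a log2 fold change of 2.14 (SE 0.19, edgeR adjusted p 3.03e-05). In both genes WT libraries varied among themselves but stayed well below the KO libraries.

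Slc7a8, an amino acid transporter, was the least expressed member and was counted 9, 25 and 10 times in WT and 65, 104 and 98 times in KO. Its log2 fold change of 2.36 (SE 0.35, edgeR adjusted p 0.000445) rests on these few WT counts. Mmp14, a metalloproteinase of the cell surface, had 6.94, 3.73 and 9.92 CPM in WT and 23.8, 17.2 and 21.8 CPM in KO, a rise of 1.62 (SE 0.29, edgeR adjusted p 0.00148). WT replicate 2 was the lowest of its group, and all KO libraries were higher. Ajuba, a LIM protein that restrains the Hippo kinases, had 58.6, 44.3 and 77.2 CPM in WT and 166, 146 and 145 CPM in KO. It rose by 1.34 (SE 0.18, edgeR adjusted p 0.000246), and it holds 17 m6A sites, the second-highest number among the members. Psmb5, the catalytic subunit of the proteasome with chymotrypsin-like activity, had 15.1, 13.4 and 20.6 CPM in WT and 42.8, 34.2 and 42.9 CPM in KO. The ranges did not meet, and Psmb5 rose by 1.29 (SE 0.17, edgeR adjusted p 0.000257). Bcl2l2, which protects cells from apoptosis, changed less, with 21.1, 19.34 and 17.01 CPM in WT and 34.8, 29.7 and 30.5 CPM in KO (log2 fold change 0.72, SE 0.13, edgeR adjusted p 0.00140). Its groups were separate as well, although without KO replicate 1 its adjusted p was 0.0107.

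The other called members of the stretch, named here after their values were seen, were 4931414P19Rik (1.25), Homez (1.22), 1700123O20Rik (1.15) and Lrp10 (0.67, the values being log2 fold changes). Homez encodes a homeobox protein and Lrp10 a receptor of the LDL receptor family. Homez was not called without WT replicate 1 (adjusted p 0.0106 in edgeR) without KO replicate 2 (0.0125) or without both libraries numbered 2 (0.0226). The stretch also held 5 members without a call, Mrpl52 at its start and the others among the called genes. Acin1, an RNA-binding protein of the splicing machinery and among the 3 members with the highest mean CPM, had 292, 291 and 257 CPM in WT and 295, 284 and 279 CPM in KO, with a log2 fold change of 0.03 (SE 0.10). Prmt5, an arginine methyltransferase, stood at 0.04, the ribosomal protein gene Mrpl52 at 0.20, the cadherin Cdh24 at 0.23 and Pabpn1, the nuclear poly(A)-binding protein, at −0.37. Genes that were several-fold higher in the KO thus alternated with genes that were not called. 10 of its 17 members hold an m6A site, among them 6 of the 12 called ones. Bcl2l2, counted without a site, and Pabpn1 both overlap the gene model Gm20521 on the same strand. A site in exons shared with Gm20521 would be given to no gene, and reads there cannot be given to either gene with certainty. Over the whole window, 24 members overlap an annotated gene on the same strand.

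**Figure D4:**
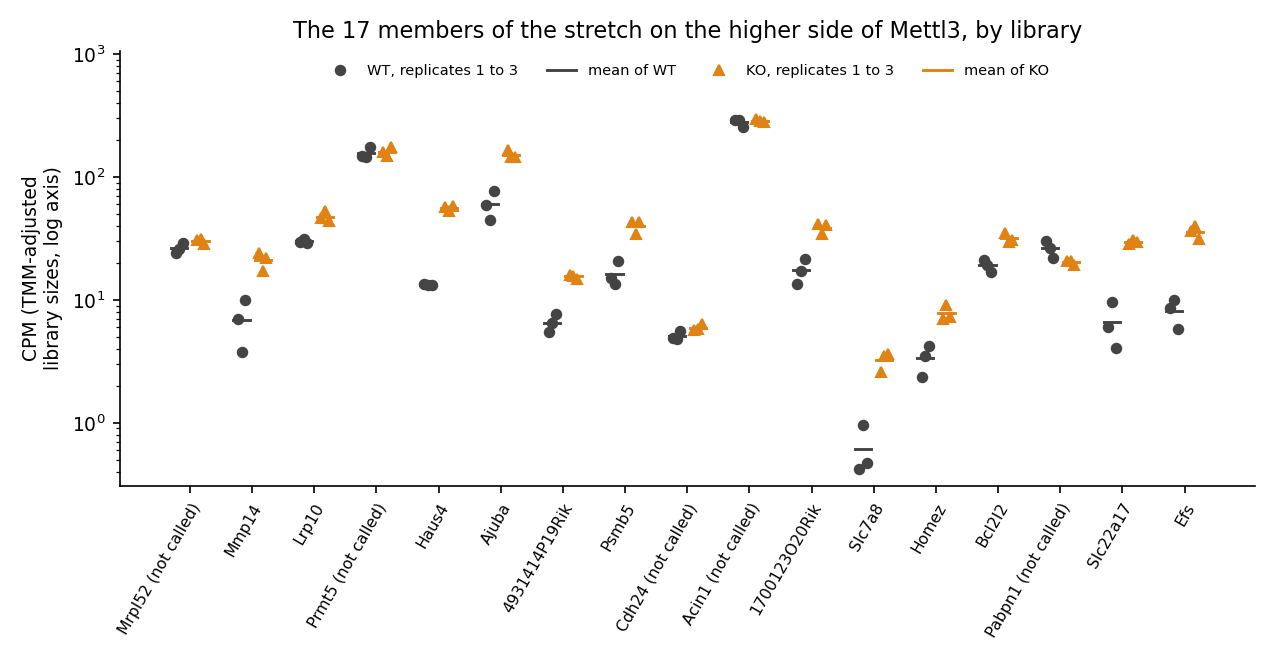
CPM (log axis) of the 17 members between 2.12 and 2.61 Mb from Mettl3 in each WT (circles) and KO (triangles) library, in the order of the chromosome, with the group means as lines. The 12 called members lie higher in all 3 KO libraries, and the 5 others are marked as not called.

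Farther out on the lower side, Ccnb1ip1 and Apex1 lie 1.49 and 1.37 Mb from Mettl3. Ccnb1ip1, a ubiquitin ligase needed for meiotic crossovers, had the lowest log2 fold change of all members. It fell from 28.6, 27.5 and 28.2 CPM in WT to 2.87, 3.51 and 3.88 CPM in KO (−3.03, SE 0.16, edgeR adjusted p 1.43e-06), and its group means differed by 8.22-fold. Apex1, the endonuclease that cuts abasic sites in base excision repair, had 100, 96.4 and 169 CPM in WT and 346, 270 and 341 CPM in KO. The lowest KO library lay above the highest WT library, and Apex1 rose by 1.39 (SE 0.21, edgeR adjusted p 0.000483). Per kb of exon it was the most abundant member, at 155 CPM per kb over all libraries, ahead of Supt16 at 99.1. Close by, the antisense gene Gm26782, which overlaps the start of Tep1 and was chosen after its values were seen, was counted 6, 24 and 10 times in WT and 111, 100 and 107 times in KO. Its log2 fold change of 2.77 (SE 0.37) was the highest of all members, while Tep1 itself, which encodes a telomerase-associated protein, was at −0.07. Parp2, a poly(ADP-ribose) polymerase next to Ccnb1ip1, was also lower (−0.62).

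At the outer end of the lower side, Lgals3, which encodes galectin-3, had 5.85, 3.81 and 13.8 CPM in WT and 2.19, 1.38 and 1.74 CPM in KO. WT replicate 3 stood well above the other WT libraries, and the log2 fold change was −2.14 (SE 0.44, edgeR adjusted p 0.00297). Without KO replicate 2 its adjusted p was 0.0156 and without KO replicate 3 it was 0.0119. Gch1, the first enzyme of tetrahydrobiopterin synthesis, had 7.60, 10.6 and 8.32 CPM in WT and 3.03, 3.81 and 3.73 CPM in KO. It was lower in all KO libraries (−1.33, SE 0.21, edgeR adjusted p 0.000724). Ktn1, a kinesin receptor of the endoplasmic reticulum, fell from 210, 210 and 212 CPM to 102, 120 and 105 CPM. The WT libraries were almost equal, and the log2 fold change was −0.95 (SE 0.10, edgeR adjusted p 9.00e-05). Otx2, a homeodomain factor of early neural and primed cells, had 16.2, 20.6 and 16.8 CPM in WT and 13.2, 6.72 and 6.06 CPM in KO. KO replicate 1 lay near the WT libraries, and the call (−1.05, SE 0.27, edgeR adjusted p 0.00967) was lost without WT replicate 1 (0.0239), WT replicate 2 (0.0257), WT replicate 3 (0.0104), KO replicate 2 (0.04), KO replicate 3 (0.0365) or both libraries numbered 2 (0.0851), with library sizes alone (0.0181) and with at least 10 counts in every library (0.0128). Naa30, the catalytic subunit of an N-terminal acetyltransferase, and Armh4 were higher, by 1.07 and 0.90. The other calls on this side were Wdhd1 (−0.62), Atg14 (−0.71), Peli2 (0.66) and Exoc5 (0.57). These 6 were named after their values were seen. The calls of Wdhd1 and Peli2 were lost without WT replicate 1 (adjusted p 0.0101 and 0.0111 in edgeR), KO replicate 1 (0.0155 and 0.0109) or KO replicate 2 (0.011 and 0.0101). Without both libraries numbered 2, Peli2 (0.0222) and Exoc5 (0.0115) were not called. Dlgap5, a mitotic spindle protein, was expressed at 165, 154 and 167 CPM in WT and 146, 130 and 151 CPM in KO, and its change of −0.19 (SE 0.10) was not called.

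On the far higher side, Rnf17, a Tudor-domain protein of germ cells 4.10 Mb from Mettl3, fell from 167, 174 and 161 CPM in WT to 28.3, 28.7 and 33.7 CPM in KO. It was 5.53-fold lower, with a log2 fold change of −2.47 (SE 0.11, edgeR adjusted p 6.38e-07). The gap between the groups was wide against a spread of a few CPM in KO. Nynrin, a protein with an integrase-like domain, had 89.8, 84.0 and 119 CPM in WT and 42.0, 59.0 and 36.9 CPM in KO. It carries more m6A sites than any other member, 24, and it was lower in the KO, by −1.08 (SE 0.19, edgeR adjusted p 0.00111). Ripk3, the kinase of necroptosis, had 11.2, 16.2 and 13.3 CPM in WT and 7.84, 8.27 and 8.53 CPM in KO. Its groups did not overlap, but the call (−0.73, SE 0.17, edgeR adjusted p 0.00665) was lost without WT replicate 2 (0.0231), KO replicate 1 (0.0332), KO replicate 2 (0.021), KO replicate 3 (0.0224) or both libraries numbered 2 (0.0417), and with library sizes alone (0.0338). Dad1, a subunit of the oligosaccharyltransferase (−0.64), and Mphosph8, of the HUSH silencing complex (−0.49), were the last calls, and both were named after their values were seen. Of the 6 fits without 1 library, Dad1 was called only in that without WT replicate 2, and its adjusted p in edgeR reached 0.034 without KO replicate 2, with 0.0202 without WT replicate 1, 0.0138 without WT replicate 3, 0.0148 without KO replicate 1 and 0.0273 without KO replicate 3. It was also above the threshold without both libraries numbered 2 (0.0115), and with library sizes alone or at least 10 counts in every library (0.0103 in both). Mphosph8 was not called without KO replicate 1 (0.0208) or KO replicate 3 (0.0134), nor with library sizes alone (0.0237).

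Grouped by function, 5 of 9 lists held calls in both directions. Each gene stands in a single list, so that Mettl17 is in none and the ubiquitin ligase Ccnb1ip1 is under DNA repair and chromatin. The shares are to be read against 29.7% of all genes tested, or 43.5% in the fit with a block for the replicate number. Of 9 members of the proteasome and ubiquitin-like pathway, 2 were higher (Psmb5 and Peli2) and 7 were not called, with a median log2 fold change of −0.06. Nedd8, the ubiquitin-like modifier of cullins, had 70.4, 63.6 and 84.0 CPM in WT and 74.1, 56.4 and 82.9 CPM in KO, and its groups overlapped. The proteasome activator genes Psme1 (−0.47) and Psme2 (−0.58) had KO libraries below all WT libraries but were not called. With the block 6 of the 9 passed, 3 in each direction, the 4 added being Psme1, Psme2, Rnf31 (−0.40) and Fbxo34 (0.46), and DESeq2 called Fbxo34 as well. Psme2 has the related gene Psme2b on chromosome 11 with which reads can be shared. Of 16 members in DNA repair, telomeres and chromatin, 3 were higher (Apex1, Chd8 and Homez) and 4 lower (Wdhd1, Ccnb1ip1, Parp2 and Mphosph8), with a median of 0.01. None of the 7 RNA-binding members was called by edgeR without the block (log2 fold changes from −0.80 to 0.34). 3 of them had an unadjusted p under 0.05, and DESeq2 called 1, the paraspeckle gene Pspc1 (−0.80). With the block edgeR called 3, Pspc1 (−0.84) and Khnyn (−0.41) lower and Nop9 (0.36) higher. Of the 3 members of the mitochondrial list (Oxa1l, Mrpl52 and Pck2), DESeq2 and edgeR without the block called none, and Oxa1l had an unadjusted p under 0.05. Oxa1l, an insertase of the inner membrane, was lower in the fit with the block (−0.39, edgeR adjusted p 0.00343). Pck2, a form of phosphoenolpyruvate carboxykinase, had 75.2, 89.4 and 165 CPM in WT and 123, 143 and 135 CPM in KO. WT replicate 3 lay above all KO libraries, and Pck2 passed the test only without it (adjusted p 0.000851 in edgeR, against 0.357 with it).

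Of 4 members in cell division and the Hippo pathway, Haus4 and Ajuba were higher, and both lie in the stretch described above. With the block Cenpj (0.44) was added to them, as was Tm9sf1 (0.51) to the following list. DESeq2 called Tm9sf1 as well, but not Cenpj. Of 11 members in membrane traffic and nuclear transport, 2 were higher and 3 lower, and of 8 in metabolism, Slc7a8 was higher and Gch1 lower. Dhrs4, a carbonyl reductase and the metabolic member with the highest mean CPM, had 17.98, 21.5 and 24.6 CPM in WT and 29.2, 23.3 and 28.5 CPM in KO, and its groups overlapped (0.34, SE 0.15). The 2 cell death members went opposite ways, Bcl2l2 higher and Ripk3 lower, as did the transcription factors Sall2 and Otx2 among 5. Nfatc4, the most abundant of these 5, had 47.7, 51.4 and 36.1 CPM in WT and 35.3, 43.6 and 29.2 CPM in KO, and its groups overlapped. 29 members were in no list, 9 of them higher and 7 lower.

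Because Mettl3 writes m6A, it was asked how many members carry the mark in WT cells. 55 of the 94 members (58.5%, Wilson 95% interval 48.4 to 67.9) had at least 1 predicted site in an exon, beside 53.9% (53.0 to 54.8) of 12071 annotated genes whose mean reached 50 counts. The intervals cover counting error only, and sites can be predicted only where a transcript is expressed. The members held 193 sites, all at an A, and 176 (91.2%) were in a DRACH motif, as were 92.9% of the sites in all such genes. GGACT was found at 50 member sites (25.9%, against 22.9%). By the transcript with the longest coding sequence over each site, 120 sites (62.2%) lay in coding sequence, 64 (33.2%) in a 3′ UTR and 5 in a 5′ UTR, while over all such genes 49.3% lay in coding sequence and 46.7% in a 3′ UTR. Nynrin alone gave 24 of the coding sites, and without it the share in coding sequence was 56.8%. Khnyn, a cofactor of antiviral RNA decay next to Nynrin, had 12 sites and Lrp10 had 8, and 9 members had 5 or more.

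Calls were found among members with and without m6A sites. Of the 55 with a site, 21 were called (38.2%), 12 higher and 9 lower, with a median log2 fold change of 0.02. Of the 39 without, 17 were called (43.6%), 9 higher and 8 lower, with a median of −0.04. Of all genes tested 29.7% were called, and of those whose mean reached 50 counts 32.3%. These shares were not split by the presence of a site. Spearman's rho of the number of sites with the log2 fold change was 0.13 (n = 94 members, a description), and with the mean count the log2 fold change had a rho of −0.08. The 4 members with the lowest and the 5 with the highest log2 fold change held 2 sites in all, both in Ndrg2. These cuts were made after the values were seen. The next highest were Mmp14 (1.62, 2 sites), Apex1 (1.39, 3 sites) and Ajuba (1.34, 17 sites). The next lowest were Gch1 (−1.33) and Mettl17 (−1.12), both without a site, and Nynrin (−1.08, 24 sites). Sites come from WT cells and can be predicted only where a transcript is expressed there. The WT means of the 5 highest ran from 0.557 (Gm26782) to 13.3 CPM (Haus4). Those of the 4 lowest ran from 7.82 (Lgals3) to 167 CPM (Rnf17). The 3 members with the most sites went both ways, Ajuba and Chd8 higher and Nynrin lower. Called members lay on both strands. 9 of the 21 higher and 8 of the 17 lower ones lay on the plus strand, as did 28 of the 56 others. In the site list of mouse heart from 1 µg of RNA, 55 members (58.5%) had a site as well, against 59.9% of the same genes.

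**Figure D5:**
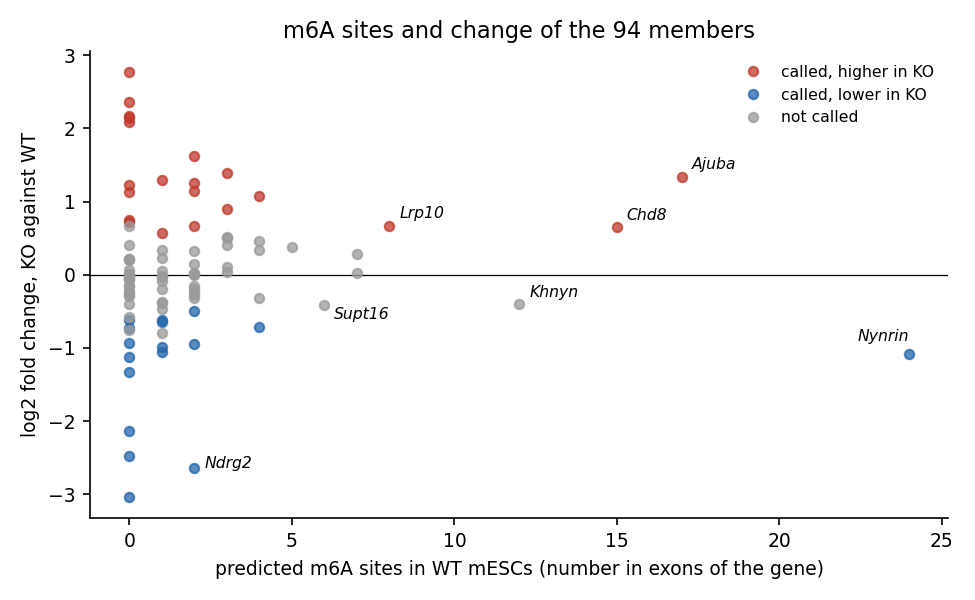
Log2 fold change (KO against WT) of the 94 members against the number of predicted m6A sites in exons of the gene in WT mESCs, coloured by call. Members with no site span the full range from −3.03 to 2.77, and the 3 with the most sites (Nynrin with 24, Ajuba with 17, Chd8 with 15) lie on both sides of 0. Sites can be predicted only where a transcript is expressed in WT.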

How the data were processed

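The gene counts were deposited by the authors as whole numbers per gene, without normalisation. The authors mapped 84-nt single-end reads of stranded libraries to GRCm38.p6 with STAR and assigned them to GENCODE genes in reverse-strand mode (HTSeq 0.12.4 and STAR 2.6.1b per the submitters' processing notes). The score deposited by the authors with each m6A site is the m6Aboost prediction score. They called miCLIP2 peaks per replicate and kept those found in several replicates, so the list has no spread. The score column of the heart list has no stated scale, and only its positions were used.

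Genes were placed with GENCODE M21 (98.3% of the 56196 IDs), an older release than that of the authors, and 9 expressed IDs could not be placed. Reads that htseq-count gave to no gene (36.7% to 42.7% of the sum of each file) were left out. The test was that of edgeR 4.0.16 under R 4.3.3 (filterByExpr, TMM, glmQLFit, glmQLFTest, KO against WT without covariates), adjusted by Benjamini-Hochberg over 15731 genes, with calls at an adjusted p of at most 0.01. The SE of a log2 fold change was computed from the test, as the size of the change divided by the square root of the F statistic. The functions were tested on simulated data. Distance is the gap between gene bodies. An m6A site was given to a gene if it lay in exons of that gene alone on the same strand. Sequences were read from the genome in Python 3.11.15, and intervals and figures were made with statsmodels 0.14.6 and Matplotlib 3.10.9.

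Replicates differed by more than sampling noise (chi-square per degree of freedom 8.67 to 100). The labels give both groups the replicate numbers 1 to 3. The deviations from the group means correlated at 0.12, 0.46 and 0.30 across genes between WT and KO libraries with the same number. Between different numbers the values lay between −0.34 and 0.11. Deviations from a group mean cancel within the group, so these values are not independent of those with the same number. KO replicate 1 correlated with WT replicate 3 (0.11) about as much as with WT replicate 1 (0.12), so number 1 by itself shows no pairing. The numbers were taken to pair the samples, but the main fit does not use this pairing. Its calls, SEs and adjusted p are those given unless the block is named. The paired fit with the replicate number as a block was run beside it. No other value of the sources states a pairing.

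Named genes are the members within 0.2 Mb of Mettl3, the 6 highest and 6 lowest log2 fold changes among called members whose mean reached 100 counts and whose groups do not overlap, the 3 with the highest mean CPM, the 3 with the most m6A sites, the called member with the largest change and the member with the highest mean CPM of each functional list, and the genes next to the minimum of 50 counts. Members named outside this rule were chosen after their values were seen. The members and the lists were chosen with earlier results of these data known. Alternatives were DESeq2 1.42.0, its size factors, scaling by library size, other filters and thresholds, other minimum counts, leaving out libraries, and other m6A site lists.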

Additional observations from a re-analysis of the deposited data

How the results depend on the processing

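All 38 called members kept their direction in each of the 13 alternative fits that tested them, and 26 kept their call in each of these. Slc7a8 and Gm26782, both among the 26, were tested in 12 of the fits. They did not pass the filter of at least 10 counts in every library. The number of called members lay between 30 and 46 without 1 library (lowest without KO replicate 1, highest without WT replicate 3) and was 31 without both libraries numbered 2, 35 with library sizes alone, 41 with DESeq2, 44 without a filter on low counts and 50 at an adjusted p of 0.05. The share of all genes called is not given here for these settings, so these counts cannot be read against a background. The paired fit with the replicate number as a block called 52 members (28 higher, 24 lower), with all 38 among them, while its background rose from 29.7% in the main fit to 43.5%. It changed the calls of Supt16 and Mettl3, and of no other gene named by the rule. Within 0.5 Mb, 5 to 8 of 9 members were called over all settings, and in the stretch 11 to 13 of 17. Mettl3 passed the threshold with DESeq2 (−0.50), the replicate block (−0.51), without KO replicate 2, without both libraries numbered 2 (−0.66) and at an adjusted p of 0.05 (−0.50). Its log2 fold change lay between −0.62 and −0.40 without 1 library. Scaling by library size moved the median of all genes by 0.10, of the members to 0.10, of the 9 nearest to −0.30 and of the stretch to 1.33. The median of the members was also −0.01 with DESeq2 size factors, 0.03 without a filter, 0.02 with at least 10 counts in every library, 0.03 without both libraries numbered 2, −0.02 at a minimum of 100 counts and −0.02 to 0.04 without 1 library, so its sign has no meaning. The median of the 9 nearest was −0.38 without a filter or with at least 10 counts in every library, −0.50 without both libraries numbered 2, −0.28 at a minimum of 20 counts and −0.51 to −0.28 without 1 library. The median of the stretch was 1.02 to 1.38 without 1 library. Spearman's rho with distance was −0.19 with at least 10 counts in every library, at a minimum of 20 or 100 counts or for coding members alone, and −0.22 to −0.20 without 1 library. The share of members with an m6A site lay between 48.9% and 61.1%. The cause of these shifts was not tested. Lgals3 and Carmil3 had the widest errors among members (SE 0.44), and a class of 9 genes limits what distance can show.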
